A study of Homo sapiens with 3 samples.

Results

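The RUNX paralogs RUNX1 and RUNX3, their shared partner CBFB and the ETO corepressors RUNX1T1, CBFA2T2 and CBFA2T3 were examined as places where RUNX2 and CBFB may bind the genes of their own network. All peaks within 25 kb of the bodies of these 6 genes were taken, which gave 31 of the 9941 RUNX2 peaks and 66 of the 27246 CBFB peaks. The question was whether RUNX2 occupies the genes of its paralogs and cofactors, where in each gene the peaks lie, how they rank and whether both proteins were found together. RUNX2 itself was used for comparison within the family and is not counted among the 6 genes.

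The data were peak lists from ChIP-seq (chromatin immunoprecipitation followed by sequencing) in SAOS2, a human osteosarcoma line that lacks p53, grown without treatment and used at low passage. RUNX2 was precipitated with an antibody that the study raised against recombinant fragments of the protein, and CBFB with a commercial antibody from Bethyl. Each antibody had 1 library, and the input DNA of the same line was not analysed here. Peak lists carry no expression values, so the identity of the cells was not checked, and whether the RUNX2 antibody also binds RUNX1 or RUNX3 was not tested.

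RUNX proteins are transcription factors that share a DNA-binding Runt domain and read the same short sequence, TGTGGT. Their common partner CBFB makes no contact with DNA and acts by stabilising a RUNX protein on its site. RUNX2 drives bone formation, RUNX1 is needed for blood stem cells and RUNX3 acts in T cells and sensory neurons. Each RUNX gene is transcribed from a distal promoter, P1, and a proximal promoter, P2, which give proteins with different N-termini. The ETO proteins (also called MTG proteins) bind no DNA on their own and bring NCoR, SIN3A and histone deacetylases to promoters. RUNX1T1 is best known as the fusion partner of RUNX1 in acute myeloid leukaemia, and CBFA2T2 and CBFA2T3 are its closest relatives.

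The distal promoters are shown first, because a RUNX2 peak covered the P1 start of all 3 RUNX genes. How often a peak covers the start of other genes was not counted. By a looser rule, a RUNX2 midpoint lay within 5 kb of an annotated start in 16.8% of protein-coding genes. Under each of the 3 RUNX2 peaks at P1 lay 2 copies of the RUNX core in the same orientation, with starts 8 bp apart. In the 3 windows of 30 bases below, read 5′ to 3′ on the strand of the gene in GRCh37 (hg19), capitals mark the cores, which appear in their complementary form ACCACA.

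RUNX1 P1, chr21:36421556-36421585, minus strand: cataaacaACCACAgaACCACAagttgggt
RUNX3 P1, chr1:25291611-25291640, minus strand: gtccctcaACCACAgaACCACAaggccagg
RUNX2 P1, chr6:45296075-45296104, plus strand: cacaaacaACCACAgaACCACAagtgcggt

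Relative to the P1 start, with positive values downstream, the paired cores began at 22 and 30 bp in RUNX1, at 16 and 24 bp in RUNX2 and at -131 and -123 bp in RUNX3. They lay 15 bp from the midpoint of the RUNX2 peak in RUNX1, 5 bp in RUNX2 and 97 bp in RUNX3. All 3 windows shared a run of 18 bases, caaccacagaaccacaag, without a mismatch. Over 74 bases centred on the paired cores, which include this run, RUNX1 and RUNX2 were identical at 40 positions, RUNX1 and RUNX3 at 38, and RUNX3 and RUNX2 at 33.

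The pattern was noticed in the sequences and then counted, so the counts describe it and do not test it. The 18-base run occurred 3 times on chromosomes 1 to 22, X and Y, on either strand, and these were the 3 distal promoters. Without regard to the other bases, TGTGGT followed after any 2 bases by a second TGTGGT, read on either strand, was present at 1010 places in the genome, of which 47 (4.65%) lay in a RUNX2 peak and 116 (11.5%) in a CBFB peak. Among the listed RUNX2 peaks on these chromosomes, 32 of 9928 (0.322%) held the paired core, and among the CBFB peaks 90 of 27204 (0.331%). Of the 31 RUNX2 peaks near the 6 genes, 2 held it, and both were the P1 peaks. In 19881 promoters of protein-coding genes, taken from 250 bp upstream to 50 bp downstream of the canonical start alone, a single core was found in 10.6%, the paired core in 4 and the 18-base run in 2. The distal promoter of RUNX3 is not among these promoters, because its canonical start is P2. The search for the single core also counts every paired core, and the motif does not tell the RUNX proteins apart.

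The RUNX2 peak at P1 of RUNX1 (36421142 to 36422028) had a score of 318.3. The score was read as the one MACS gives, -10 times the log10 of a peak's p-value, and this peak stood above or level with 96.5% of the RUNX2 list. The midpoint of this peak lay 14 bp inside the transcript, and 4 cores were found in it. At P1 of RUNX3 (25291142 to 25292302) the RUNX2 score was 266.2, at 94.7% of the list, with the midpoint 221 bp upstream of the start and 2 cores. The RUNX2 promoter itself had the highest of the 3 scores, 681.08, at 99.5% of the list, with the midpoint 18 bp downstream and 5 cores. All 11 cores in these 3 peaks pointed the same way relative to the gene, with TGTGGT on the strand opposite to it.

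CBFB peaks covered the same 3 starts. By the looser rule of a midpoint within 5 kb of an annotated start, 37.9% of protein-coding genes had a CBFB peak. The CBFB peak at P1 of RUNX1 had the score 3100, the highest value in the list, which 25 CBFB peaks reached. At 4503 bp (36417890 to 36422392) it spanned 3 RUNX2 peaks, namely the one at the start and others centred 1259 bp (score 65.2) and 3046 bp (score 213.26) downstream. The CBFB peak at P1 of RUNX3 scored 1071.82, at 98.1% of its list, and the one at P1 of RUNX2 1926.11, at 99.6%. Thus the distal promoters of the whole RUNX family carried high-ranking peaks of both proteins.

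**Figure D1:**
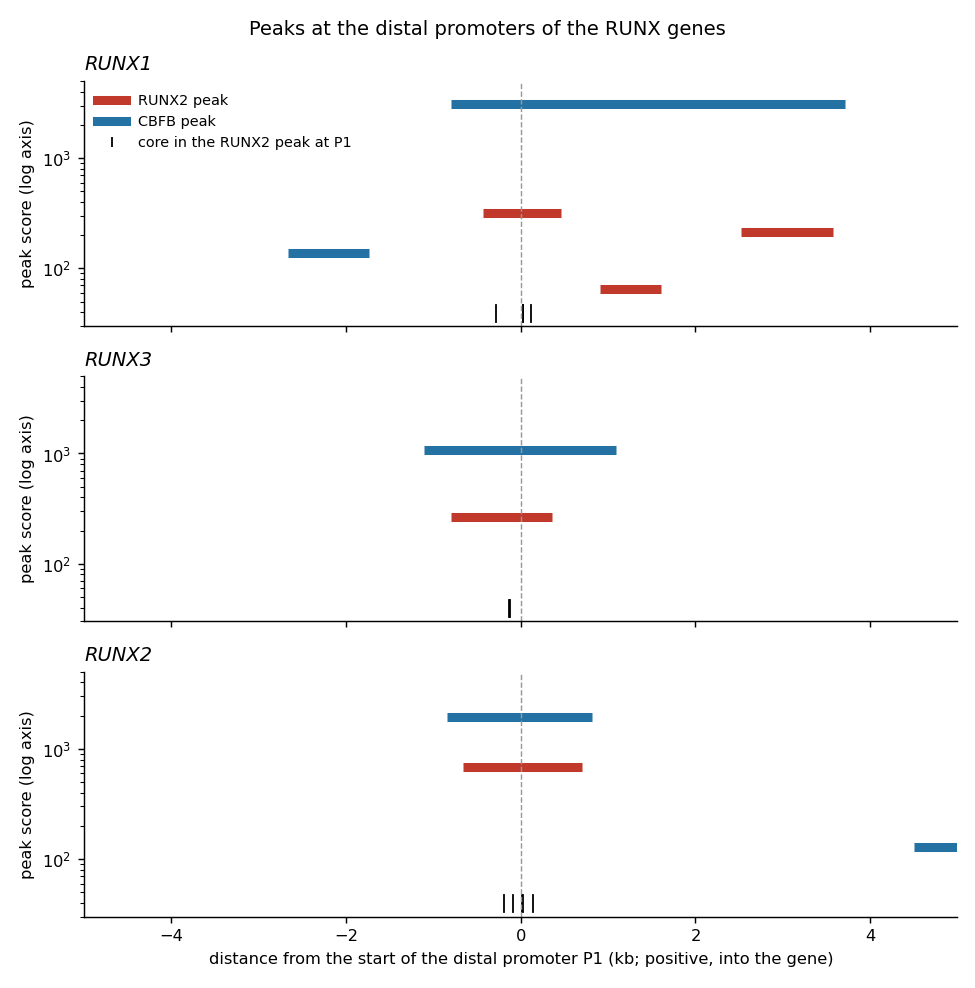
RUNX2 peaks (red) and CBFB peaks (blue) within 5 kb of the P1 start of RUNX1, RUNX3 and RUNX2, drawn from their first to their last base against the score (log axis), with 1 library per antibody. Black ticks mark the RUNX cores in the RUNX2 peak at the start, where ticks 8 bp apart merge; in each gene a RUNX2 peak and a CBFB peak cross the start at 0.

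The proximal promoters differed from one another. At P2 of RUNX1 (start at 36260987), a RUNX2 peak with a score of 111.68, at 68.0% of the list, covered the start with its midpoint 346 bp downstream, and a CBFB peak of 489.57 covered it as well. At P2 of RUNX2 (start at 45390222), the start was covered by a CBFB peak of 554.97, and the RUNX2 peak of 117.04 within it was centred 1498 bp upstream. P2 of RUNX3 (start at 25256767), the start of the transcript that the annotation marks as canonical, had no peak of either protein within 5 kb. The nearest RUNX2 midpoint was 14249 bp downstream of it and the nearest CBFB midpoint 6418 bp downstream. In RUNX1 and RUNX2 the P2 peak scored lower than the P1 peak in both lists.

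RUNX1 (ENSG00000159216, chromosome 21, 36160098 to 37376965, minus strand) held 23 of the 31 RUNX2 peaks and 42 of the 66 CBFB peaks. Per 100 kb of gene body and 25 kb surrounds this was 1.82 RUNX2 and 3.32 CBFB peaks, above 88.7% and 82.6% of the 20163 protein-coding genes. Its length of 1216868 bp rests on a transcript of 1117.62 kb that GENCODE does not place in its basic set. The basic coding transcripts span 261544 bp, from P1 to the end of the gene. From P1 to 25 kb beyond the gene end there were 10 RUNX2 peaks, or 3.49 per 100 kb, and in the 980.324 kb upstream of P1 there were 13, or 1.33 per 100 kb. Over the whole genome, which includes the sequence between genes, the density was 0.321 RUNX2 peaks per 100 kb. The mean over protein-coding genes with their 25 kb surrounds was 0.620. The RUNX2 scores in both stretches had like medians, 94.8 downstream and 92.37 upstream, and a core lay within 100 bp of the midpoint in 7 of the 10 and 5 of the 13 peaks.

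Inside the basic RUNX1 gene, the highest RUNX2 scores after P1 and its neighbour at 213.26 were those of intronic peaks. The peak at 36272553 to 36273507, 12043 bp upstream of P2, scored 116.04, held no core and overlapped a CBFB peak of 329.95. The peak at 36358772 to 36360035 lay 62196 bp downstream of P1, scored 111.9 and overlapped a CBFB peak of 830.41. Further intronic peaks lay 183431 bp (score 77.92, CBFB partner 446.56), 240790 bp (72.11) and 241424 bp (61.45) downstream of P1, the last 2 under a single CBFB peak of 414.11. Beyond the gene end, a peak of 55.09 with a CBFB partner of 69.53 lay in an intron of the noncoding gene LINC01426. Apart from the P1 cluster, the peaks inside the gene thus ranked between 23.3% and 70.2% of the list.

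Upstream of P1 the strongest RUNX2 peak, at 37296165 to 37298292 and thus at -875629 bp relative to P1, scored 276.94 (95.1% of the list) and overlapped a CBFB peak of 1952.91, which ranked 99 in its list. The next peaks began at 37151767 (score 195.2, CBFB partner 389.95), at 36606754 (190.4, partner 910.35) and at 36936072 (152.18, partner 526.17). The other 9 peaks scored below 100. From P1 outwards, they began at 36664325 (51.97), 36697051 (78.59), 36723161 (57.78), 36920702 (92.37), 37006508 (64.69), 37023361 (99.39), 37030350 (50.64), 37110046 (96.78) and 37367844 (66.42). Their CBFB partners, in the same order, scored 208.65, 284.13, 88.05, 310, 258.1, 405.49, 214.05, 764.42 and 655.66. The scores thus showed no steady fall with distance from P1, and the weakest RUNX2 peak of all 31 lay between stronger ones. None of the 13 lay near a basic coding start of RUNX1, since the closest of them to P1 was centred at -185677 bp. The longest stretch without a RUNX2 peak ran for 196.67 kb, from 36724031 to 36920702, and the longest without a CBFB peak for 180.61 kb, directly upstream of the P1 region from 36424266 to 36604877. The peaks upstream of P1 count as RUNX1 peaks only through transcripts outside the basic set, which have 5 starts in this stretch, and their link to RUNX1 was not tested.

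CBFB peaks at RUNX1 without a RUNX2 peak numbered 22, with a median score of 85.725. Near P1, one of 138.58 was centred at -2204 bp and held no core. At P2, CBFB peaks of 81.81 and 81.29 flanked the peak of 489.57 on either side, the first in the direction of transcription. Between P1 and P2, further CBFB-only peaks of 139.45, 56.5 and 167.73 lay 45680, 77412 and 120422 bp downstream of P1, each with a core within 100 bp of its midpoint. These 6 peaks ranked between 8.04% and 63.7% of the CBFB list. All had their midpoint in an intron, that of 138.58 only through transcripts outside the basic set. Upstream, CBFB-only peaks of 83.78 (36841422 to 36842438) and 59.01 (37361248 to 37362164) lay within 5 kb of starts outside the basic set.

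Cores near the midpoints of 5 RUNX2 peaks that cover no P1 or P2 start, from each of the 4 genes with RUNX2 peaks, are shown in windows of 46 bases. The strand is the one on which the central core reads TGTGGT, and capitals mark all cores in either orientation.

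RUNX1, 3 kb downstream of P1, score 213.26, chr21:36418503-36418548, minus strand: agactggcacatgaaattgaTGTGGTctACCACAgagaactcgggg
RUNX1, upstream of P1, score 190.4, chr21:36607198-36607243, plus strand: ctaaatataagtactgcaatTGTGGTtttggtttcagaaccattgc
RUNX3, intron, score 407.93, chr1:25241104-25241149, plus strand: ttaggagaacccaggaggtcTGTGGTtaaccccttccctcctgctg
CBFA2T3, intron, score 343.12, chr16:88949454-88949499, plus strand: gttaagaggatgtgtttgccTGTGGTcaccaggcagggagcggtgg
CBFB, beyond the gene end, score 81.91, chr16:67149717-67149762, plus strand: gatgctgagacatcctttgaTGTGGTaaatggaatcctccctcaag

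The window in RUNX1 downstream of P1 also held 2 cores, but these faced each other, unlike those at P1. The windows from RUNX3 and from upstream of RUNX1 carried the longer form TGTGGTT. The windows from CBFA2T3 and CBFB held the 6-base core alone.

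RUNX3 (ENSG00000020633, chromosome 1, 25226002 to 25291612, minus strand), with 5 peaks of RUNX2 and 10 of CBFB, was the most densely occupied of the 6 genes. With 4.32 RUNX2 and 8.65 CBFB peaks per 100 kb of gene body and 25 kb surrounds, it stood above 98.5% and 98.9% of the 20163 protein-coding genes. The highest RUNX2 score near any of the 6 genes, 407.93 (98.3% of the list), belonged to an intronic peak at 25240354 to 25241774, 50437 bp downstream of P1 and 15703 bp downstream of P2. A second intronic peak of 177.21 (25242019 to 25243017) lay beside it and held no core, and both fell under a CBFB peak of 2522.3, which ranked 47 in its list. The other RUNX2 peaks were the P1 peak of 266.2, an intronic peak of 86.33 (25275778 to 25276387, CBFB partner 208.54) and a peak of 56.67 centred at -7876 bp from P1 (partner 358.69). Of the 6 CBFB peaks at RUNX3 without a RUNX2 peak, the highest scored 404.88 (25262720 to 25264351) and held 4 cores. A CBFB-only peak of 108.52 (25249931 to 25250767) lay 4940 bp from a start outside the basic set. Each of the 10 CBFB peaks held at least 1 core, as did 80.9% of the CBFB list.

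**Figure D2:**
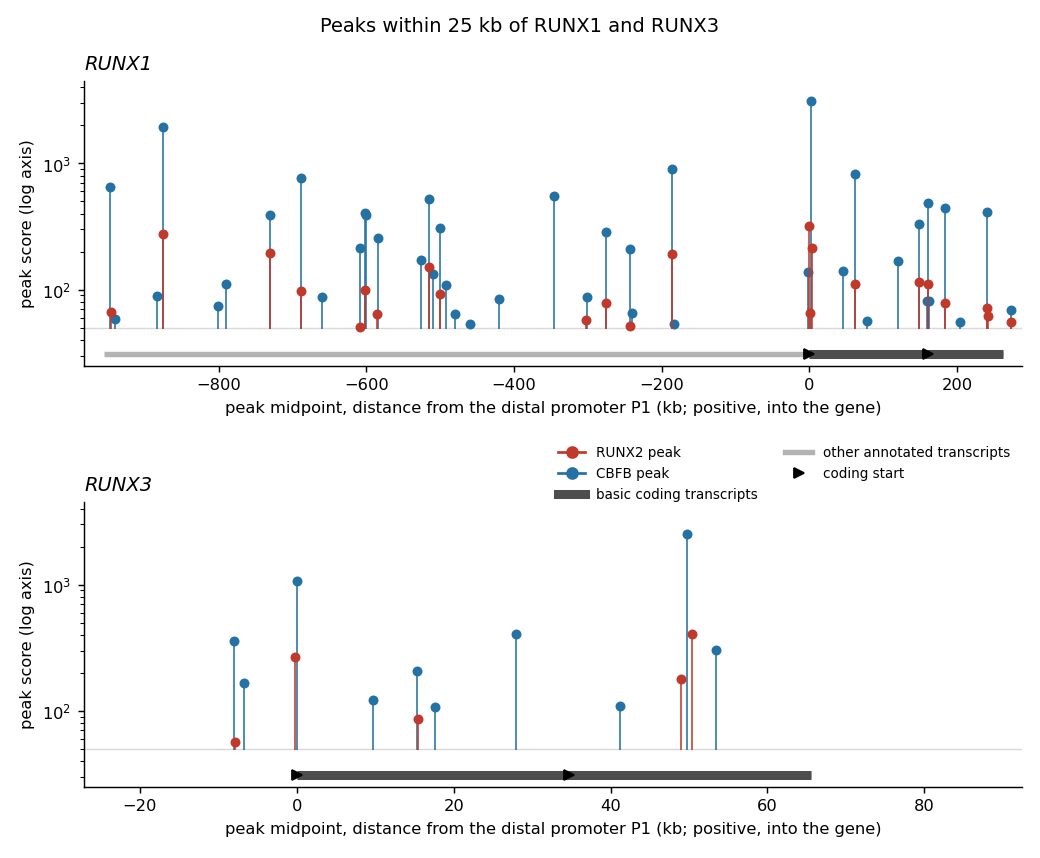
Score (log axis) of each RUNX2 peak (red) and CBFB peak (blue) within 25 kb of RUNX1 and RUNX3, against the distance of its midpoint from P1 in kb; bars underneath show the basic coding transcripts (dark) and other transcripts (light), and arrowheads the P1 and P2 starts. In RUNX1, 13 of the 23 RUNX2 peaks lie upstream of P1 along the light bar; in RUNX3, the highest peaks of both lists lie about 50 kb downstream of P1, and P2 has none within 5 kb.

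CBFB (ENSG00000067955, chromosome 16, 67062887 to 67134961, plus strand), the gene of the common partner, had no peak of either protein in its body or within 5 kb of a start. Its single RUNX2 peak (67149399 to 67149946) scored 81.91, at 47.9% of the list, and lay 14438 bp beyond the gene end in an intron of the neighbouring gene PHAF1, where the nearest start belonged to PHAF1. It overlapped a CBFB peak of 204.04. The other CBFB peak, with a score of 193.34, was centred at -14837 bp from the CBFB start and held no core. All peaks near CBFB thus lay outside the gene, and the densities of 0.819 RUNX2 and 1.64 CBFB peaks per 100 kb compared with means of 0.620 and 1.64 over all protein-coding genes. These densities stood above those of 71.0% and 62.1% of protein-coding genes. The medians over these genes were 0 for RUNX2 and 1.14 for CBFB. A RUNX2 peak lay within 25 kb of 36.0% of them, so a single peak places a gene above the majority.

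Of the ETO genes, CBFA2T3 alone had RUNX2 peaks. CBFA2T3 (ENSG00000129993, chromosome 16, 88941266 to 89043615, minus strand) encodes a corepressor of blood progenitors and had 2 RUNX2 and 9 CBFB peaks. The stronger RUNX2 peak (88948728 to 88950399) scored 343.12, at 97.2% of the list, and overlapped a CBFB peak of 1937.38, which ranked 102. It lay in an intron, 94052 bp downstream of the canonical start and 117 bp from the start of the noncoding gene ENSG00000259881. The second RUNX2 peak (88963988 to 88964970) scored 125.8, held no core and overlapped a CBFB peak of 713.39.

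The canonical start of CBFA2T3 had no peak within 5 kb, and the second basic coding start (89007606) had a CBFB peak of 164.42 centred 1554 bp upstream and no RUNX2 peak. Both RUNX2 peaks counted as promoter peaks only through annotated partial transcripts outside the basic set. The other 6 CBFB peaks near CBFA2T3 scored from 57.36 to 273.32. CBFA2T3 stood above 79.4% of protein-coding genes in its density of RUNX2 peaks, and above 95.2% in that of CBFB peaks.

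CBFA2T2 (ENSG00000078699, chromosome 20, 32077881 to 32237842, plus strand), a corepressor that is broadly expressed, had no RUNX2 peak within 25 kb, and its nearest lay 66.08 kb away. Of the 20163 protein-coding genes, 49.0% were as far or farther from a RUNX2 peak. It had 3 CBFB peaks. An intronic CBFB peak of 101.69 lay 34342 bp downstream of the start, and peaks of 77.92 and 285.7 lay beyond the gene end at NECAB3. None of these was at a promoter of CBFA2T2, and none had a core within 100 bp of its midpoint.

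RUNX1T1 (ENSG00000079102, chromosome 8, 92967200 to 93115514, minus strand), the founding ETO gene, had no peak of either protein. The nearest RUNX2 peak was 1226.97 kb away and the nearest CBFB peak 421.53 kb away. Only 5.04% of protein-coding genes were as far or farther from a RUNX2 peak, and 5.43% from a CBFB peak. A region without a peak is one where no enrichment passed the limit of the lists at an unknown depth, and it is not shown to be free of either protein.

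**Figure D3:**
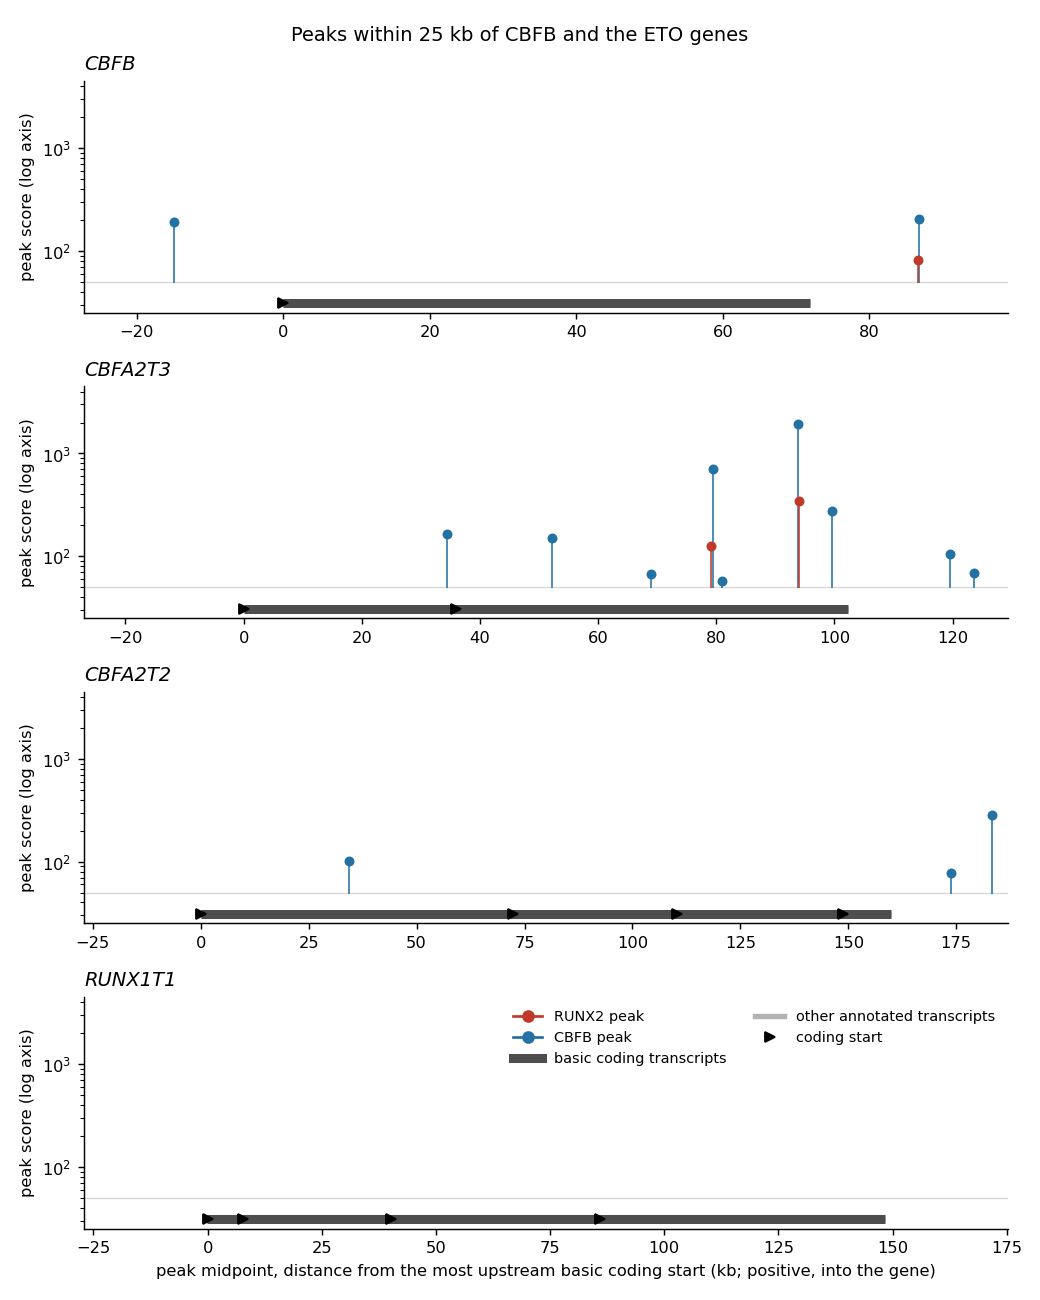
Score (log axis) of each RUNX2 peak (red) and CBFB peak (blue) within 25 kb of CBFB, CBFA2T3, CBFA2T2 and RUNX1T1, against the distance of its midpoint in kb from the most upstream basic coding start, with arrowheads at the basic coding starts. CBFB and CBFA2T2 have no RUNX2 peak in the gene, CBFA2T3 has 2 in its downstream introns, and the panel of RUNX1T1 is empty in both lists.

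Counted together, 4 of the 6 genes (RUNX1, RUNX3, CBFB and CBFA2T3) had a RUNX2 peak within 25 kb, where 36.0% of the 20163 protein-coding genes did. A RUNX2 midpoint lay within 5 kb of an annotated start in 3 of the 6 (RUNX1, RUNX3 and CBFA2T3), beside 16.8% of protein-coding genes. CBFB peaks lay within 25 kb of 5 of the 6, beside 62.2%, and within 5 kb of a start in 3 of the 6, beside 37.9%. With 6 genes of very different length, these shares are a description and give no measure of preference. Of the 31 RUNX2 peaks, 25 had their midpoint in an intron of the gene, 2 in a UTR and 4 outside it. The 25 include the 13 RUNX1 peaks upstream of P1, which are intronic only through transcripts outside the basic set. Within 1 kb of a basic coding start lay 3 of the 31, at P1 and P2 of RUNX1 and at P1 of RUNX3. These positions were not counted over the whole RUNX2 list, so they give no measure of preference.

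**Figure D4:**
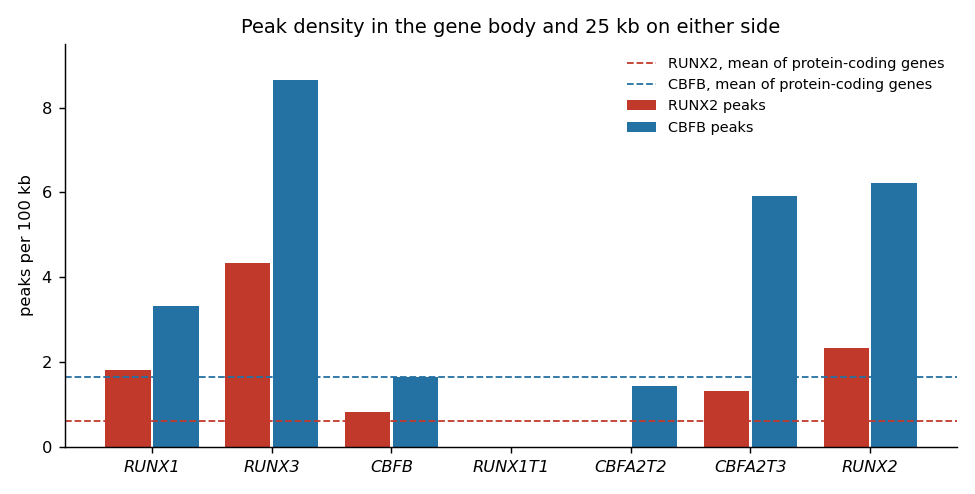
Number of RUNX2 peaks (red bars) and CBFB peaks (blue bars) per 100 kb of gene body with 25 kb on either side for the 6 genes and RUNX2, from 1 library per antibody, so that there are no error bars; dashed lines show the means over the 20163 protein-coding genes, 0.620 and 1.64. RUNX3 has the tallest bars of both colours, with 4.32 and 8.65, and RUNX1T1 has none.

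A CBFB peak overlapped each of the 31 RUNX2 peaks, or 100% of them (exact 95% interval 88.8 to 100), where 1 shared bp sufficed. Over the list this share was 94.2% (93.7 to 94.7), so that the value near the 6 genes differed from it by no more than counting error allows. The paper reports a clearly lower share of RUNX2 peaks that overlap CBFB peaks and does not give its overlap rule. The reason for this difference was not tested. The 31 peaks fell on 27 CBFB peaks, because 3 CBFB peaks covered several RUNX2 peaks each. Midpoints of the overlapping pairs lay a median of 133 bp apart. These intervals cover counting error alone, since the peaks of 1 library are not replicates.

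RUNX2 peaks were found on 27 of the 66 CBFB peaks, or 40.9% (29.0 to 53.7), beside 33.8% over the CBFB list. The 27 had scores from 69.53 to 3100 with a median of 414.11, and the 39 CBFB peaks without a RUNX2 peak had scores from 53.41 to 548.42 with a median of 106.43. Of these 39, 22 were at RUNX1, 7 at CBFA2T3, 6 at RUNX3, 3 at CBFA2T2 and 1 at CBFB. The highest of them, at 36766625 to 36767970 upstream of P1 of RUNX1, held 5 cores. The third-highest, at 37021637 to 37022800 in the same stretch, scored 392.24 and held no core.

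The RUNX2 peaks near the 6 genes scored from 50.64 to 407.93, with a median of 96.78, where the median of the list was 84.1. Of the 31, 10 were among the highest-scoring 20% of the list, or 32.3% (16.7 to 51.4). The CBFB peaks had a median of 169.99, beside 121 over their list, and 25 of the 66 (37.9%, 26.2 to 50.7) were among the highest-scoring 20%. For RUNX2 the interval includes this value of 20%, and for CBFB it lies above it. The intervals treat peaks as independent, but 42 of the 66 CBFB peaks lie at RUNX1 alone, so this is a description and not a test. The CBFB partners of the 31 RUNX2 peaks had a median percentile of 89.7% in the CBFB list, beside 80.5% over all 9365 overlapping RUNX2 peaks, and 29 of the 31 (93.5%) were at or above 70%, beside 66.2%. The RUNX2 peaks themselves had a median percentile of 59.7%, beside 52.3%. The 2 peaks with partners below 70% were both at RUNX1, the peak of 55.09 in LINC01426 (partner at 20.8%) and an intronic peak of 57.78 upstream of P1 (partner at 34.1%). Across the 31 overlapping peaks, Spearman's rho of the RUNX2 score and the score of its CBFB partner was 0.702, beside 0.602 over 9365 overlapping peaks. The points share partners, loci and libraries, and the value is a description. The paper reports a higher rank correlation over its own overlapping peaks, computed from summed tag counts and not from these scores.

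**Figure D5:**
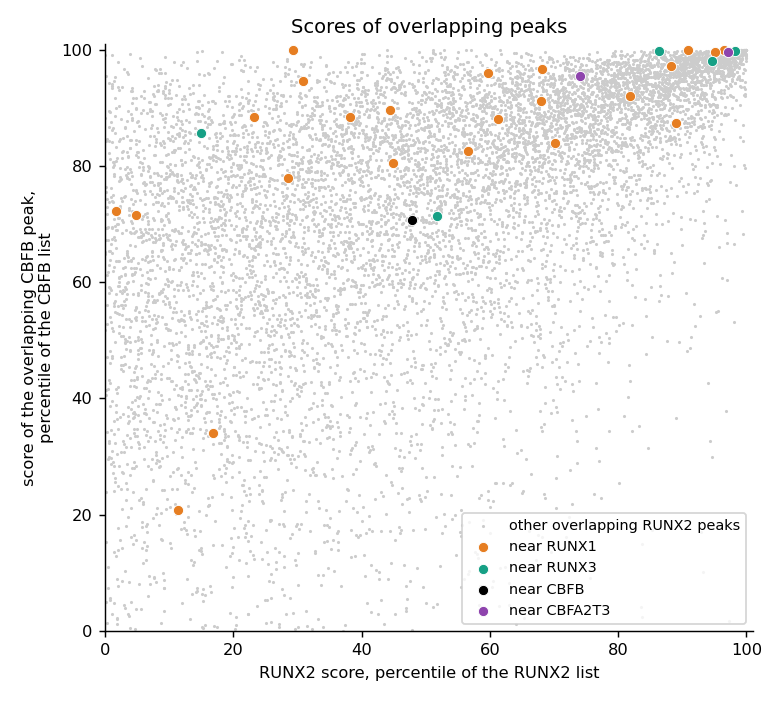
Percentile of the RUNX2 score in the RUNX2 list against the percentile of the overlapping CBFB peak in the CBFB list, for all 9365 overlapping RUNX2 peaks (grey) and for the 31 near the 6 genes (coloured by gene). Of the coloured points, 93.5% lie at or above 70% on the CBFB axis, beside 66.2% of all points, and on the RUNX2 axis the coloured points run from 1.68% to 98.3%.

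The RUNX core lay within 100 bp of the midpoint in 18 of the 31 RUNX2 peaks, or 58.1% (39.1 to 75.5). Over the RUNX2 list the share was 43.2%, and the interval of the 31 peaks includes it. In peak-free windows of equal size placed 2 kb away on both sides, the core was found in 4 of 49 (8.16%, 2.27 to 19.6) near the 6 genes and in 13.6% over the list. RUNX1 contributed 12 of the 18 peaks with a core, RUNX3 4, and CBFB and CBFA2T3 1 each. The core was thus more frequent under the RUNX2 peaks than beside them, by more than their counting intervals.

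Among the 66 CBFB peaks, 27 had the core within 100 bp of the midpoint (40.9%, 29.0 to 53.7), beside 41.6% over the list and 15 of 116 flanking windows (12.9%). The share was 44.4% in the 27 that overlapped a RUNX2 peak and 38.5% in the other 39, with intervals of 25.5 to 64.7 and 23.4 to 55.4. By gene it was 20 of 42 at RUNX1, 6 of 10 at RUNX3, 1 of 2 at CBFB, 0 of 3 at CBFA2T2 and 0 of 9 at CBFA2T3. At CBFA2T3, 5 of the 9 CBFB peaks had no core anywhere, while 80.9% of the CBFB list held at least 1.

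Genes that act with the members were counted from 2 lists, which were chosen with earlier results of these data known. Of 15 genes of the NCoR complex and of ETO partners (NCOR1, SIN3A, HDAC1 to HDAC3 and others), 7 had a RUNX2 peak within 25 kb and 5 had one within 5 kb of a start, and 12 and 9 had a CBFB peak. The highest RUNX2 scores among these 15 were 396.66 at HDAC2, a histone deacetylase, 104.73 at TCF3, an E protein that ETO proteins bind, and 73.62 at TBL1X, a subunit of the NCoR complex. Of 10 blood factors that act with RUNX1, 6 had a RUNX2 peak within 25 kb and 1 within 5 kb of a start, and 9 and 5 had a CBFB peak. Here the highest RUNX2 scores were 211.88 at SPI1, 132.84 at ETV6 and 76.25 at LMO2, whose peak was the one at a start. The shares of both lists within 25 kb, 7 of 15 and 6 of 10, stand beside the 36.0% of protein-coding genes, and those at a start, 5 of 15 and 1 of 10, beside 16.8%. For CBFB peaks, 12 of 15 and 9 of 10 stand beside 62.2%, and at a start 9 of 15 and 5 of 10 beside 37.9%.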

How the data were processed

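The members of the gene set and the 2 lists of related genes were chosen with earlier results of these data known. ChIP-seq was performed on SAOS2 cells with 1 library each for RUNX2, CBFB and input, and the RUNX2 and CBFB peak lists were used. Per the submitters' processing notes, CASAVA 1.8.2, MACS 1.4.1 and hg19 were used. Which aligner and calling limit were used, and whether the input served as control, was not given in the sources used here. From its range of 50 to 3100, the score that the authors deposited was taken to be -10 times log10 of the p-value of a peak. It depends on depth, which is unknown, so scores were ranked within each list. A percentile is the share of a list at or below a score.

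Gene models came from GENCODE release 44 in its GRCh37 mapping (64449 genes, 20163 protein-coding, 254376 transcripts). A peak was near a gene if its interval came within 25 kb of the gene body, at a promoter if its midpoint lay within 5 kb of a start, and overlapping if it shared at least 1 bp. Coordinates are counted from 1. Basic coding starts were numbered from the most upstream. The 13 RUNX2 and 42 CBFB peaks outside chromosomes 1 to 22, X and Y did not enter annotation and sequence steps. TGTGGT was searched on both strands. Shares carry exact Clopper-Pearson 95% intervals. With 1 library per antibody, no test was run.

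By a fixed rule the text gives the 6 genes with all RUNX2 peaks, and the CBFB peaks at promoters, overlapping RUNX2 or among the 3 highest of a gene. Other CBFB peaks and sequence patterns were picked after their values were seen. Alternatives covered reach, score limit, list length, overlap, transcripts and motif. From the list of corepressor genes, 1 gene is not reported here and was left out of the counts. The steps were tested on simulated data. Python 3.11.15, numpy 2.4.6, pandas 2.3.3, scipy 1.17.1, pysam 0.24.0 and matplotlib 3.10.9 were used.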

Additional observations from a re-analysis of the deposited data

How the results depend on the processing

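Of 83 recomputed values, 59 stayed within 1.5 times the count or the interval of the share and 24 moved. Those that stayed include counts of 0, which no alternative could raise. The settings with basic coding transcripts and without RUNX1 were chosen after seeing the data. The number of RUNX2 peaks near the 6 genes, 31, fell to 14 at scores of at least 100 and to 18 with basic coding transcripts, which drop the stretch upstream of RUNX1. The number of CBFB peaks, 66, fell to 34 with the CBFB list shortened to the length of the RUNX2 list and to 38 with basic coding transcripts. With an overlap of 50% of each of both peaks, 71.0% of the RUNX2 peaks overlapped CBFB. The share of CBFB peaks that overlapped RUNX2, 40.9%, was 73.5% with the shortened CBFB list and 25.5% at scores of at least 100 in both lists. The overlap shares under these settings were not computed over the whole lists, so whether the shifts are particular to the 6 genes is unknown. A core anywhere in the peak was found in 80.6% of RUNX2 and 74.2% of CBFB peaks, beside 78.1% and 80.9% over the lists. TGTGGTT lay within 100 bp of the midpoint in 35.5% and 18.2%, beside 23.4% and 23.2% over the lists. Without RUNX1, the core shares were 75.0% of 8 RUNX2 peaks and 29.2% of 24 CBFB peaks. A RUNX2 peak lay at a start of 2 or 3 genes, and CBFA2T3 was no longer one of them within 1 kb or with basic coding starts. The RUNX2 counts of 0 at RUNX1T1 and CBFA2T2 could not change, because every alternative only narrowed the selection. No paired analysis was possible because there was 1 library per antibody. Depth is unknown, so weaker binding may be missing from either list.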
